A study of Mus musculus with 12 samples.

Results

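Macrophages are often recognised by a small set of genes, some of which other myeloid cells also express: neutrophils and monocytes carry much Lyz2, and monocytes also carry Aif1 and Mpeg1. The data for 5 such genes are described here: Emr1 (now Adgre1), Aif1, Lyz2, Ms4a7 and Mpeg1. They are 5 of the 34810 gene names on the array. Every array probe whose gene name in the scanner files was one of these symbols was taken, and each probe was read on its own. This gave 7 of the 55651 probes used, with a pair of probes each for Emr1 and Mpeg1 and 1 probe for each of the others. All 7 were well above background on 12 of 12 arrays by the scanner software's own call, and none was saturated.

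The 12 arrays form 4 groups of 3. Kidney cells came from op/op mice or from wild-type (WT) mice that had received glyoxylate at 80 mg/kg for 6 days, a treatment used to form calcium oxalate crystals in the mouse kidney, and were sorted magnetically for CD11b and CD11c, surface integrins of myeloid cells. The op/op mice carry the osteopetrotic op mutation of Csf1, the gene of macrophage colony-stimulating factor (M-CSF), on both alleles. M1 cells were bone marrow derived macrophages exposed to lipopolysaccharide and GM-CSF, and M2 cells were bone marrow derived macrophages exposed to IL-4 and M-CSF. The strain label of every sample is B6C3Fe a/a-Csf1op/J, and the labels give no age or sex and no genotype for the marrow donors. Nothing in the labels says whether the 3 replicates of a group were separate animals or cultures. The p-values therefore weigh a difference only against the spread among these samples, and that spread may be technical.

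F4/80, the protein of Emr1, is an adhesion G protein-coupled receptor at the cell surface and the classical antibody marker of mouse macrophages. Ms4a7 encodes a membrane-spanning protein of the MS4A family found in macrophages. Aif1 encodes Iba1, a calcium-binding protein that bundles actin in microglia and other macrophages. The proteins of the last pair act on microbes: Lyz2 encodes lysozyme M, which cleaves bacterial cell walls, and Mpeg1 encodes perforin-2, a pore-forming protein. M-CSF supports the survival and growth of many tissue macrophages, and op/op mice are known for a shortage of them.

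The probes are 60 bases long, and their positions are those of the files (mouse build mm9). For Emr1, probe A_55_P2144386 lies at chr17:57622868-57622927 and probe A_55_P2018934 at chr17:57620350-57620409, both on the plus strand. The Aif1 probe A_51_P400543 lies at chr17:35307959-35308018 and the Lyz2 probe A_51_P321150 at chr10:116719175-116719234, both on the minus strand. The Ms4a7 probe A_55_P1958165 lies at chr19:11395903-11395962 on the minus strand. For Mpeg1, probe A_51_P390538 lies at chr19:12539387-12539446 and probe A_52_P180373 at chr19:12537697-12537756, both on the plus strand. The 3 sequences below are shown as part of what the array read for the surface marker and for the antimicrobial proteins. The other probe of Emr1 and of Mpeg1 is not printed. A reading frame without a stop codon runs through each, as through every other probe but Emr1 A_55_P2144386. They are given 5′ to 3′ as the scanner files list them.
Emr1, A_55_P2018934: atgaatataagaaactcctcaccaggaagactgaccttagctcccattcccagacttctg
Lyz2, A_51_P321150: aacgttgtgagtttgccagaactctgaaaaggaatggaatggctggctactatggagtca
Mpeg1, A_52_P180373: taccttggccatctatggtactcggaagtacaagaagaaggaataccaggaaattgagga

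Lyz2 has a close neighbour, Lyz1, on the same chromosome and strand, and reads of such near-identical copies cannot always be separated on an array. The 250 bases before the start of each gene are shown because the pair moved together in these data (below). They are RefSeq sequences of build GRCm38.p6, minus strand, at chr10:117282273-117282522 for Lyz2 and chr10:117292869-117293118 for Lyz1, and capitals mark ACTTCCT, the reverse complement of AGGAAGT, a motif of the type that ETS factors such as PU.1 bind.
Lyz2 upstream: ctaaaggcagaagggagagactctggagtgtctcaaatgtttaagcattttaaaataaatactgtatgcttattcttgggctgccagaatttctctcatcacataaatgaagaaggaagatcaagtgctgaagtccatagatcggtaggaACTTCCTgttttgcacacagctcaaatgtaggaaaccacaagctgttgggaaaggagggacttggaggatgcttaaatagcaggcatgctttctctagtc
Lyz1 upstream: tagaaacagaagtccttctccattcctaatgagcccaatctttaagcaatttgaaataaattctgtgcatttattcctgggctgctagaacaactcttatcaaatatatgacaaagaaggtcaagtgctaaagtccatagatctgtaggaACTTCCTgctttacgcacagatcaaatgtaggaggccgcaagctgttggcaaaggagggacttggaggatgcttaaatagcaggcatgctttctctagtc
Set base to base without gaps, 152 of the 250 positions were the same (60.8%). Stretches that are alike but shifted by a base count as different here, so this share understates how alike the windows are. The motif was searched on both strands and lies at position -100 from the start of each gene. It occurs in 7.69% of 32851 windows cut in the same way, to the 250 bases before the start of a gene. GAGGAA, which shares the letters AGGAA with that motif, was found upstream of Aif1 (position -7), in none of the other windows searched (Lyz2, Lyz1, Ms4a7 and Mpeg1), and occurs in 23.3% of windows. TATAAA was found in none of the windows searched and occurs in 12.4%. The motifs were chosen with these sequences in view, and a match is a description, not a binding site. The table of upstream sequences holds 1 entry each for Aif1, Lyz2 and Mpeg1 and 2 for Ms4a7, and Emr1 (Adgre1), which has no entry, was not searched. The 2 entries of Ms4a7 and the entry of Mpeg1 held none of the 3 motifs.

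Values below are log2 signals after subtracting the log2 of the 75th percentile of the same array, so a difference of 1 is a doubling, and levels are compared within a probe only. Probes called well above background made up 63.1% to 68.8% on op/op arrays, 76.1% to 79.3% on WT arrays, 72.6% to 75.1% on M1 arrays and 64.4% to 65.1% on M2 arrays. Renal arrays varied more among themselves (median residual SD 0.376) than bone marrow arrays (0.172). The fit pools both, so the error it gives tends to understate the spread of the renal comparison and to overstate that of M1 minus M2. WT replicate 1 was alone on slide 1, the other 5 renal arrays were on slide 2 and the bone marrow arrays on slide 3. On each slide WT and M1 lay in row 1 and op/op and M2 in row 2, so row and group cannot be told apart, nor can tissue and slide.

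In kidney cells, each of the 5 genes had a lower signal in op/op than in WT mice, by 2.1-fold to 4.98-fold over the 7 probes. Lyz2, the lysozyme M gene, was 4.98-fold lower and Ms4a7 4.62-fold lower. Emr1, the F4/80 gene, was 4.36-fold lower on one probe and 2.65-fold lower on the other, and Aif1 was 2.87-fold lower. All 7 probes passed (limma, adjusted p under 0.05), in a comparison where 28.5% of the 40648 probes tested were called lower. Their median difference was -1.52, against 0.08 over all probes tested. In bulk RNA of sorted cells, fewer macrophages and less RNA of these genes per cell cannot be told apart.

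Emr1 on probe A_55_P2144386 read 0.07, 0.11 and 0.47 in op/op cells (replicates 1, 2 and 4), against 2.26, 3.34 and 1.43 in WT cells. The 3 op/op arrays lay close together and below every WT array, while the WT arrays were spread widely. The difference was -2.12 ± 0.36 (SE, n = 3 each, limma adjusted p = 0.00143). On probe A_55_P2018934 Emr1 read -0.60, -0.52 and -0.63 in op/op cells and 0.79, 1.92 and -0.24 in WT cells. The groups again did not overlap, but WT replicate 4 came close to the op/op arrays. This difference was -1.41 ± 0.40 (limma adjusted p = 0.0126). The 2 Emr1 probes differed by -0.72 in their op/op minus WT difference (two-sided exact permutation p = 0.1, the smallest that 3 against 3 arrays allow, and 0.171 when adjusted over the 12 comparisons of probe pairs).

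Ms4a7 read -0.60, -0.53 and -0.84 in op/op cells, against 1.52, 2.83 and 0.31 in WT cells. Every op/op array was below every WT array. The difference was -2.21 ± 0.45 (limma adjusted p = 0.00317), which is 4.62-fold lower.

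Aif1 had the tightest WT arrays. It read 3.06, 2.92 and 3.13 in op/op cells, against 4.36, 4.92 and 4.41 in WT cells. The groups lay apart by more than the range of either. The difference was -1.52 ± 0.18 (limma adjusted p = 0.00045), or 2.87-fold lower.

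Lyz2 read -0.69, -0.50 and -1.05 in op/op cells, against 1.73, 2.71 and 0.26 in WT cells. The groups did not overlap, and the WT arrays spanned more than the op/op arrays. Its difference of -2.32 ± 0.46 (limma adjusted p = 0.00278) was 4.98-fold. The neighbouring Lyz1, an antibacterial lysozyme of the intestine in mice, averaged 1.11 in op/op and 2.57 in WT cells, a difference of -1.47 ± 0.32 (limma adjusted p = 0.00385). How much of each lysozyme signal comes from the other gene was not tested.

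Mpeg1 on probe A_51_P390538 read 3.93, 4.04 and 3.81 in op/op cells, against 5.14, 5.94 and 4.32 in WT cells. Here the groups did not overlap, and the difference was -1.21 ± 0.31 (limma adjusted p = 0.00847). On probe A_52_P180373 it read -0.68, -0.30 and -1.10 in op/op cells, against -0.37, 0.93 and 0.56 in WT cells. This was the one probe whose groups overlapped, since WT replicate 1 fell below op/op replicate 2. Its difference was -1.07 ± 0.30 (limma adjusted p = 0.0128), and the Mpeg1 probes differed by -0.14 in their differences (two-sided exact permutation p = 0.8). In all, 6 of 7 probes had groups that did not overlap, beside 56.4% of the probes tested.

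**Figure D1:**
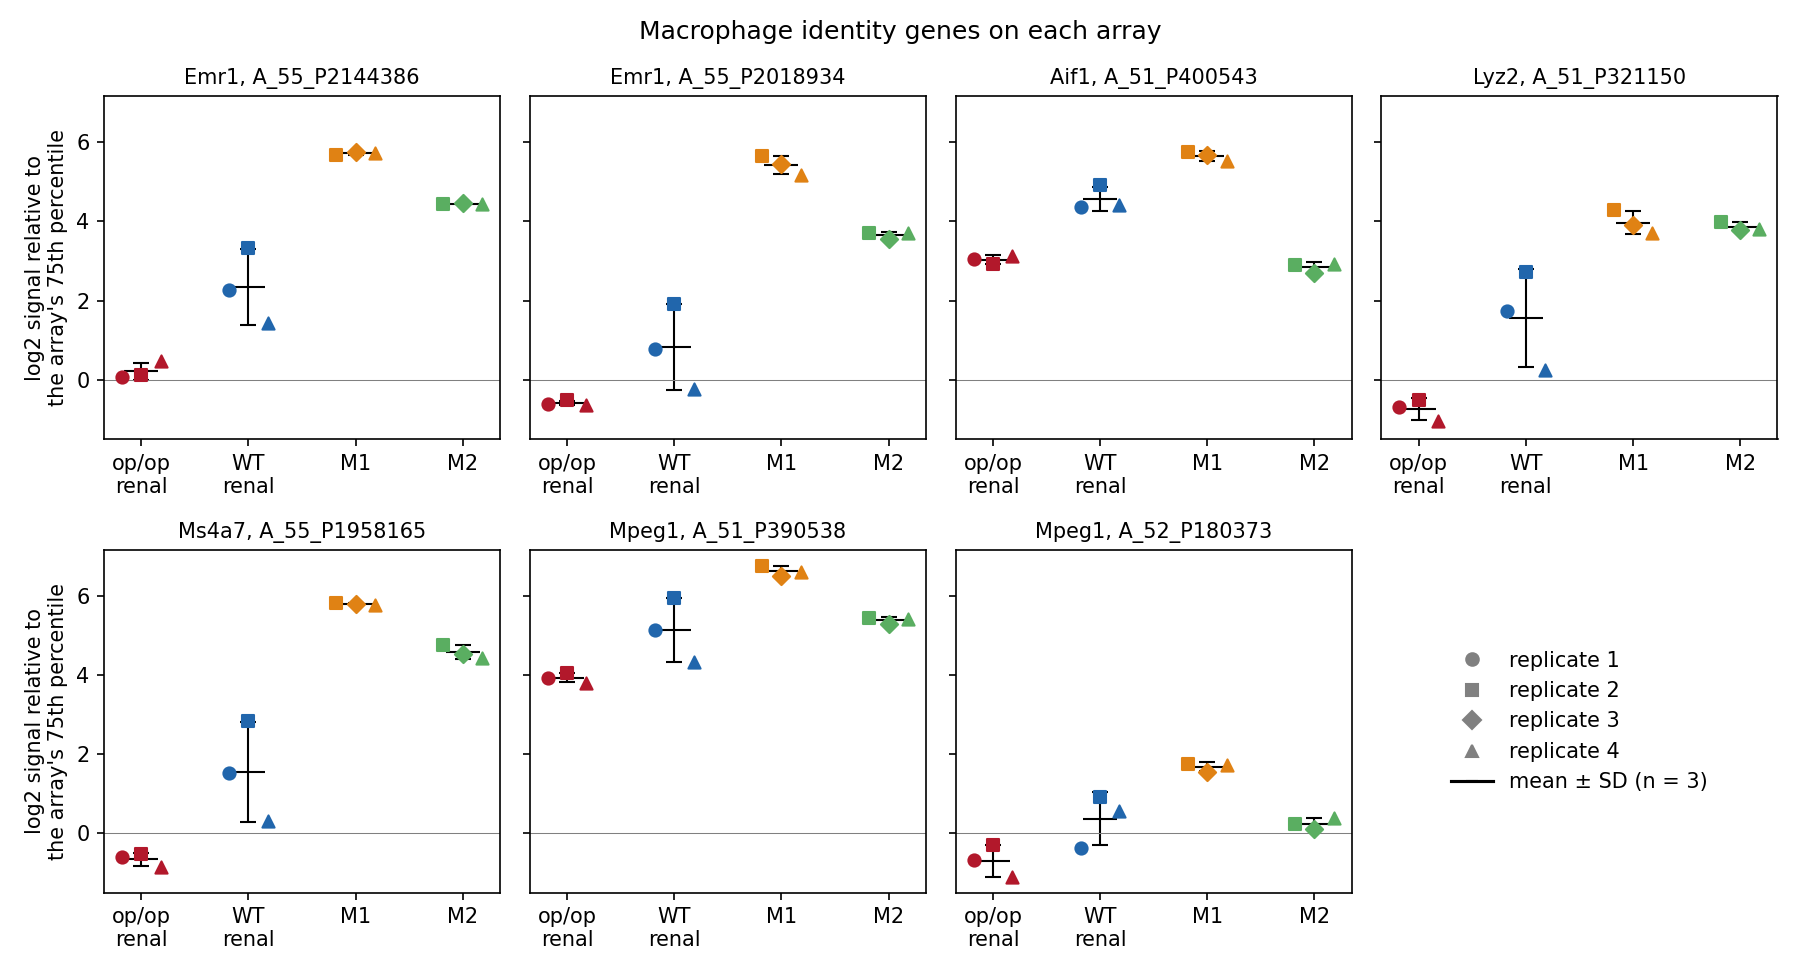
Log2 signal of the 7 probes (y axis, scaled to the 75th percentile) on each array, with op/op renal, WT renal, M1 and M2 groups along the x axis. Points are arrays, marked by replicate number, and bars are the mean ± SD (n = 3). The op/op arrays lie close together and mostly below the spread WT arrays, and M1 is the highest group on every probe.

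The WT arrays held most of the spread. SDs over the 7 probes ran from 0.06 to 0.40 in op/op cells and from 0.31 to 1.26 in WT cells. WT replicate 2 was the highest WT array for 7 of 7 probes, and replicate 4 was the lowest for 5 and replicate 1 for 2. Without replicate 2 the differences were -1.63 and -0.86 for Emr1 (A_55_P2144386 and A_55_P2018934), -1.57 for Ms4a7, -1.34 for Aif1, -1.74 for Lyz2 and -0.81 for Mpeg1 (A_51_P390538), and all of these passed. Mpeg1 on A_52_P180373 was at -0.79 and then missed the threshold (limma adjusted p = 0.052). Without replicate 4 the differences were -2.58 and -1.94 for Emr1, -2.83 for Ms4a7, -1.60 for Aif1, -2.97 for Lyz2, and -1.62 and -0.97 for Mpeg1, and 7 of 7 passed. A fit with a slide term rests on the arrays of slide 2, so it gave the same differences as leaving out WT replicate 1. They were -2.17 and -1.42 for Emr1, -2.22 for Ms4a7, -1.62 for Aif1, -2.23 for Lyz2, and -1.21 and -1.44 for Mpeg1, and 7 of 7 passed.

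**Figure D2:**
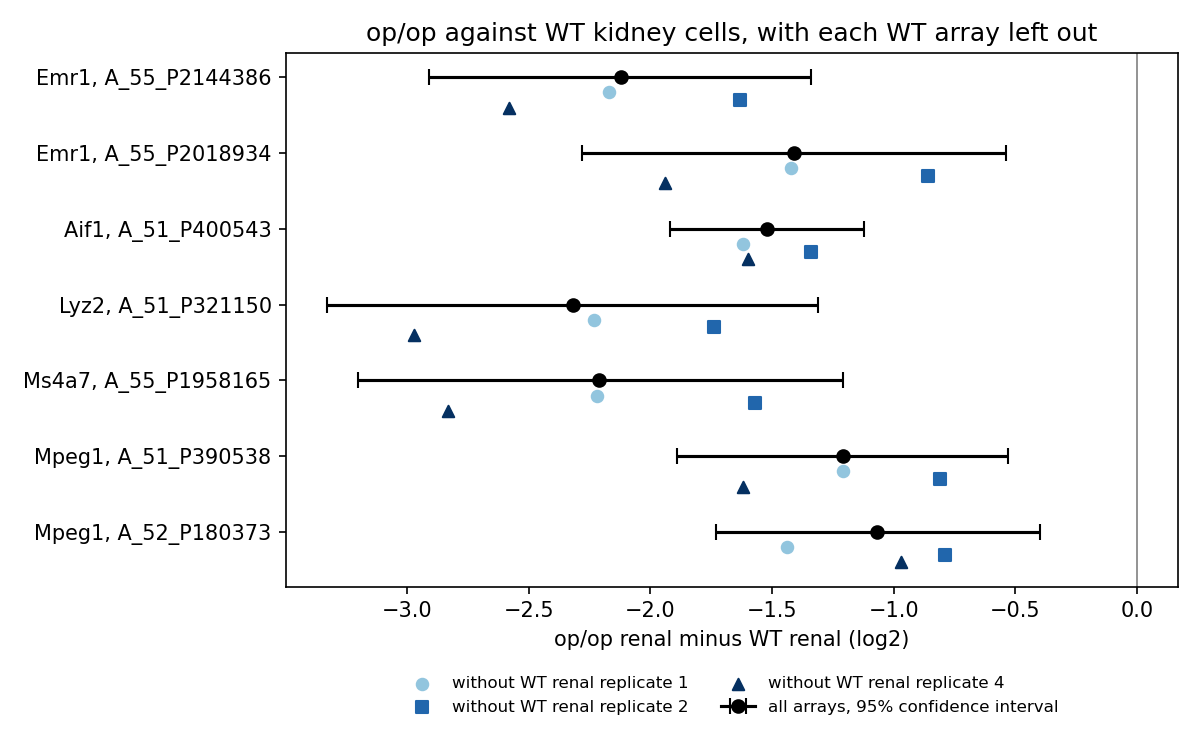
Difference between op/op and WT kidney cells (x axis, log2) for each of the 7 probes (y axis). Black points are the values from all arrays with their 95% confidence interval, and blue points leave out WT replicate 1, 2 or 4. All points lie below 0, and leaving out replicate 2 gave the smallest difference for every probe.

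Most other macrophage genes fell as well. Of 18 tested genes of a list of 20, 13 were lower and 1 higher in op/op cells, with a median of -1.33, beside 28.5% of all probes called lower and 27.5% called higher. Cx3cr1, the fractalkine receptor, had -2.61 ± 0.33, and C1qc, a chain of complement C1q, -2.19 ± 0.29. Vsig4, a complement receptor of resident macrophages, was the gene called higher, at 1.60 ± 0.33 (limma adjusted p = 0.0031). The rest did not pass: C1qb (-0.78 ± 0.39), Siglec1 (0.19 ± 0.25), Marco (-0.02 ± 0.38) and Csf1r, the M-CSF receptor gene (0.08 ± 0.15, limma adjusted p = 0.644). The Csf1r probe varied little over all groups, with means of 4.98 in op/op, 4.90 in WT, 4.59 in M1 and 4.77 in M2 cells. The count called lower was 12, 11 and 14 without WT replicates 1, 2 and 4. The summed signal of the list (linear, relative to the 75th percentile) was 102, 98.2 and 97.7 on the op/op arrays and 216, 326 and 157 on the WT arrays, with WT replicate 2 highest, as for the 5 genes. Such a sum is carried mostly by the brightest probes of its list and need not follow the other genes.

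The sorting antigens gave mixed values. Itgax, the gene of CD11c, had -1.62 ± 0.19 in op/op minus WT and Itgb2, the shared beta chain, -1.16 ± 0.28 (limma adjusted p = 0.000444 and 0.00629), while Itgam, the gene of CD11b, had 0.31 ± 0.21 (limma adjusted p = 0.228). All 3 were above background on every renal array. The Itgam probe was bright in all groups, with means of 8.03 in op/op, 7.72 in WT, 7.24 in M1 and 7.01 in M2 cells.

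Marker lists of other cells were also read between op/op and WT cells, where 28.5% of all probes were called lower and 27.5% higher. For dendritic cell and endothelial genes, the shares called in each direction were below these. Of 8 tested monocyte genes 5 were lower in op/op cells and 1 higher, with sums of 19.1 to 23.3 on op/op and 43.3 to 46.1 on WT arrays. Of 10 dendritic cell genes 1 was higher and 2 lower, with sums of 46.5 to 53.6 on op/op and 36.5 to 39.0 on WT arrays. These sums mostly follow the brightest gene, Siglech, which averaged 5.41 in op/op and 4.91 in WT cells. Its probe was bright in marrow macrophages too, at 4.43 in M1 and 4.33 in M2 cells. Of 13 proximal tubule genes 11 were lower in op/op cells and 0 higher (9 to 11 lower without 1 of the WT arrays). Their summed signal was 48.6, 76.6 and 26.7 on the op/op arrays and 258, 126 and 132 on the WT arrays, and 1.71 to 1.80 on M1 and 2.78 to 3.14 on M2 arrays. It was highest on WT replicate 1, where the macrophage genes were not. On no op/op array were the tubule genes Slc13a1 and Slc22a8 well above background. The NK cell genes Eomes, Gzmb and Klrk1 were not above it on any op/op array either, and Klrk1 on no WT array. Eomes (0.02 ± 0.26, limma adjusted p = 0.94) and Gzmb (-0.04 ± 0.32, limma adjusted p = 0.915) did not pass in op/op minus WT. Distal nephron and collecting duct genes had 4 higher and 1 lower of 8, and sums of 23.0 to 72.6 on op/op and 44.2 to 105 on WT arrays. Endothelial genes had 1 higher and 0 lower of 8, and sums of 36.3 to 55.8 on op/op and 27.0 to 38.3 on WT arrays. More lymphocyte genes were higher than lower: 3 of 6 tested T cell genes, 4 of 6 B cell genes and 3 of 5 NK cell genes were higher in op/op cells, beside 27.5% of all probes called higher, and 1 B cell gene was lower. The summed T cell signal was 58.0 to 79.7 on op/op and 16.1 to 43.9 on WT arrays, the B cell signal 3.77 to 5.48 on op/op and 2.14 to 2.66 on WT arrays, and the NK cell signal 39.8 to 52.3 on op/op and 16.6 to 27.4 on WT arrays. On M1 and M2 arrays the T cell sums were 13.4 to 16.1 and 16 to 19.9, near WT replicate 1 (16.1). The B cell sums there were 0.863 to 0.894 and 0.714 to 0.8, and the NK cell sums 10 to 12.4 and 9.12 to 11.7. T and NK cell probes thus also gave signal in marrow macrophages. The T cell sums mostly follow Cd4, which averaged 5.38 in op/op, 4.04 in WT, 3.19 in M1 and 3.25 in M2 cells. Cd3g was not well above background in op/op or WT cells. Without WT replicate 2 the B cell counts were 3 higher and 0 lower. Neutrophil genes had 4 higher and 1 lower of 11, and sums of 313 to 352 on op/op and 255 to 310 on WT arrays. These sums mostly follow Csf3r, which did not pass (0.25 ± 0.16, limma adjusted p = 0.187). The Csf3r probe averaged 8.14 in op/op, 7.89 in WT, 7.60 in M1 and 7.31 in M2 cells. The part of these other cells in the differences of the 5 genes was not tested.

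**Figure D3:**
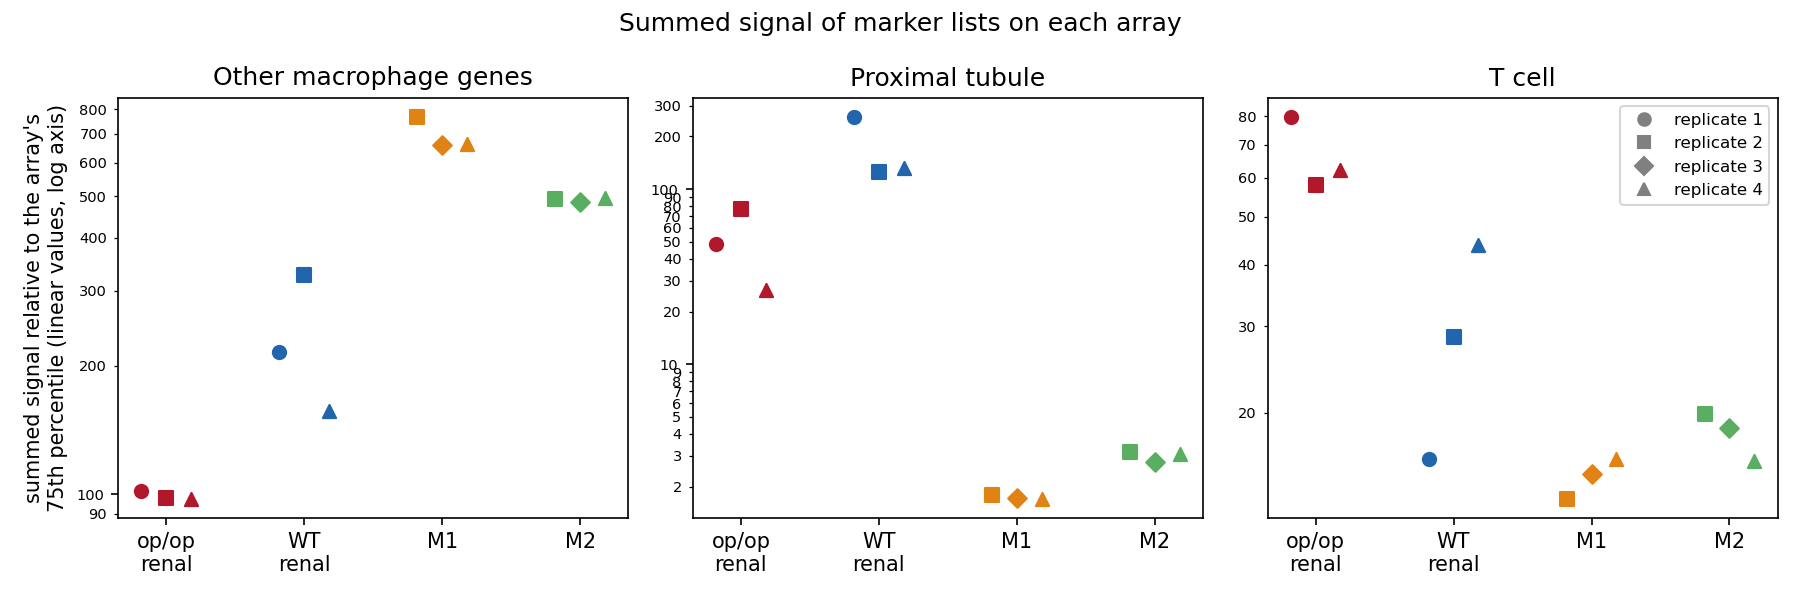
Summed signal of 3 marker lists on each array (y axis, linear, scaled to the 75th percentile, log axis) for the op/op renal, WT renal, M1 and M2 groups. Points are arrays, marked by replicate number. The sums of other macrophage genes and of proximal tubule genes were lower on every op/op array than on any WT array, and the sum of T cell genes was higher.

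In bone marrow derived macrophages, M1 cells held more of F4/80, Iba1 and perforin-2 transcripts than M2 cells. Aif1 stood out at 7.01-fold, Emr1 was 2.42-fold and 3.42-fold higher on its probes, and Mpeg1 2.36-fold and 2.7-fold. Lyz2 was at nearly the same level in both, and Ms4a7 was 2.32-fold higher in M1 without passing the test. In all, 5 of 7 probes passed as higher and 0 as lower (limma), beside 8.9% of the 39286 probes called higher and 8.88% called lower. The median difference was 1.28, against 0 over all probes tested.

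Aif1 read 5.76, 5.67 and 5.52 in M1 cells (replicates 2, 3 and 4), against 2.89, 2.69 and 2.93 in M2 cells. The difference was 2.81 ± 0.18 (limma adjusted p = 9.21e-07), and it is the member for which M1 and M2 lay farthest apart. Emr1 on A_55_P2144386 read 5.67, 5.75 and 5.73 in M1 cells, against 4.44, 4.46 and 4.43 in M2 cells. Arrays within each group nearly coincided, yet the pooled error gave 1.28 ± 0.36 (limma adjusted p = 0.0285), and the call ended when any 1 of these 6 arrays was left out (differences of 1.26 to 1.30). The error is pooled with the kidney arrays, and without WT replicate 2 or 4 the limma adjusted p was 0.00194 or 0.00406. On A_55_P2018934 Emr1 read 5.65, 5.44 and 5.18 in M1 cells, against 3.70, 3.55 and 3.70 in M2 cells. This gave 1.77 ± 0.40 (limma adjusted p = 0.00885).

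Mpeg1 on A_51_P390538 read 6.76, 6.49 and 6.60 in M1 cells, against 5.45, 5.28 and 5.41 in M2 cells. The groups did not overlap and differed by 1.24 ± 0.31 (limma adjusted p = 0.0165), a call that ended without M1 replicate 2 (1.17), M1 replicate 4 (1.25) or M2 replicate 3 (1.19). Without WT replicate 2 or 4 the limma adjusted p was 0.00208 or 0.00152. On A_52_P180373 it read 1.75, 1.55 and 1.74 in M1 cells, against 0.23, 0.11 and 0.40 in M2 cells, a difference of 1.43 ± 0.30 (limma adjusted p = 0.00635).

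Ms4a7 read 5.81, 5.79 and 5.76 in M1 cells, against 4.77, 4.53 and 4.43 in M2 cells. The groups did not overlap, but with the error pooled over all arrays the difference of 1.21 ± 0.45 missed the threshold (limma adjusted p = 0.0932). With only these 2 groups in the fit it passed (limma adjusted p = 0.000341), and over all alternatives its adjusted p ranged from 0.000341 to 0.211. Without WT replicate 2 it was 0.00983 and without WT replicate 4 it was 0.0114.

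Lyz2 read 4.28, 3.91 and 3.70 in M1 cells, against 3.99, 3.78 and 3.82 in M2 cells. The groups overlapped. The difference was 0.10 ± 0.46 (limma adjusted p = 0.929), with a 95% confidence interval of -0.91 to 1.11 that leaves room for about a doubling in either direction. Lyz1 averaged 3.43 in M1 and 3.54 in M2 cells (-0.11 ± 0.32, limma adjusted p = 0.875). Over the 7 probes, 6 had groups that did not overlap, beside 51.2% of all probes tested.

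Of the 19 listed other macrophage genes tested in M1 against M2, 6 were higher and 5 lower, with a median of 0.13, beside 8.9% of all probes called higher and 8.88% called lower. The difference between this list and the 5 genes was not tested.

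**Figure D4:**
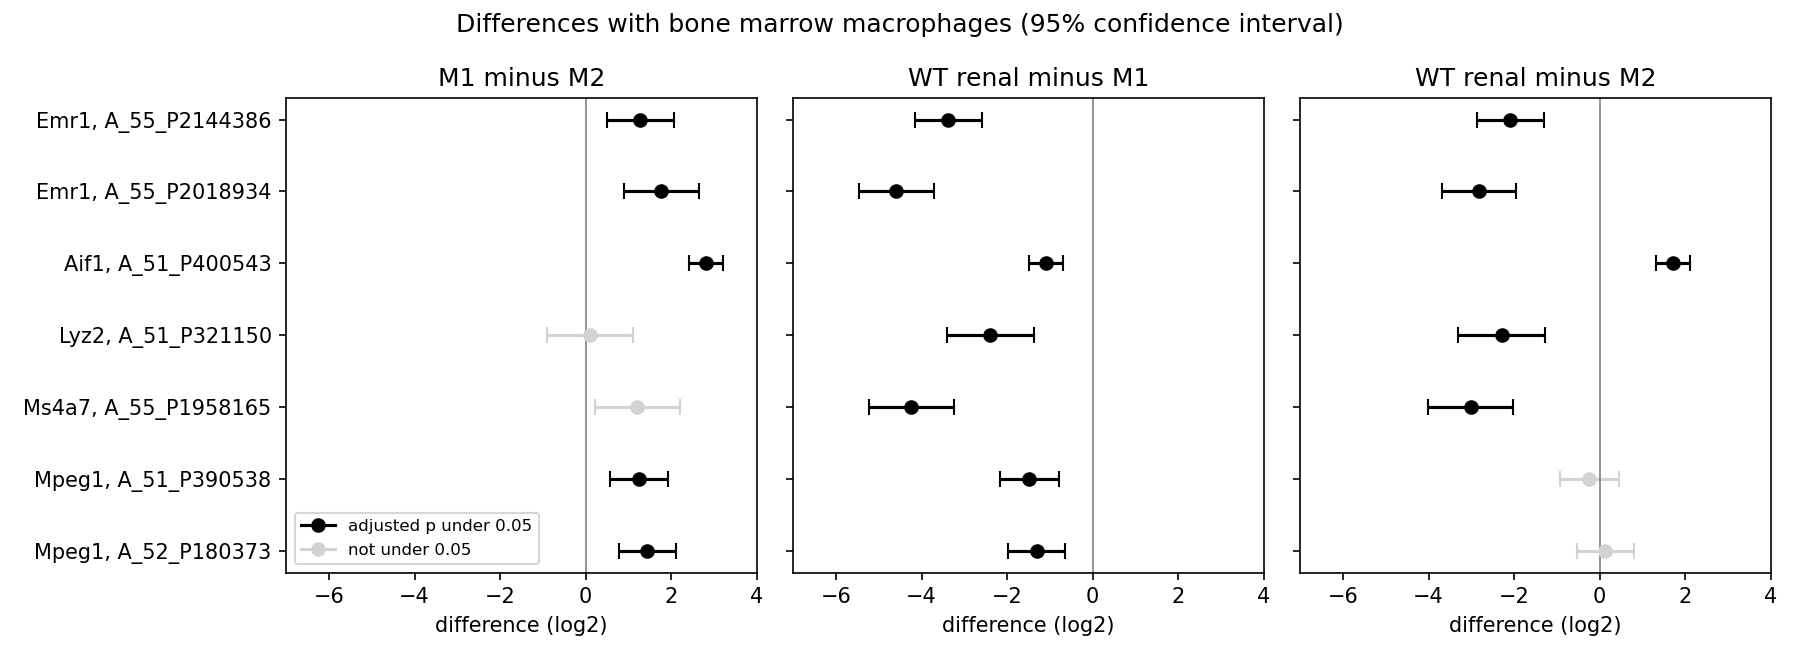
Differences of the 7 probes (y axis) in M1 minus M2, WT renal minus M1 and WT renal minus M2 (x axes, log2), with 95% confidence intervals. Black marks an adjusted p under 0.05 and grey the others. Aif1 lies to the right of 0 against M2 in both panels that hold it, and the other probes of WT kidney cells lie below 0 except Mpeg1 A_52_P180373 at 0.12 against M2.

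Kidney cells were then set against marrow macrophages. Since slide and tissue cannot be told apart, these differences include any difference between slides, and comparisons with a group in common share its arrays. WT kidney cells were below M1 cells for all 5 genes. The difference was -3.38 ± 0.36 and -4.59 ± 0.40 for Emr1, or 10.4-fold and 24.2-fold lower. For Ms4a7 it was -4.24 ± 0.45 (18.9-fold lower), and for Lyz2 -2.39 ± 0.46 (5.26-fold lower). Mpeg1 was 2.79-fold and 2.47-fold lower, and Aif1 2.13-fold lower at -1.09 ± 0.18. All 7 probes passed as lower (limma adjusted p of 3.95e-06 to 0.00338), beside 24.2% of 42384 probes called lower. On all 7 the groups did not overlap, as on 64% of the probes tested.

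WT kidney cells and M2 cells differed by gene. Emr1 was lower in WT kidney cells by -2.10 ± 0.36 and -2.82 ± 0.40, Ms4a7 by -3.02 ± 0.45 and Lyz2 by -2.29 ± 0.46, and these 4 probes passed as lower (limma adjusted p of 0.000118 to 0.00124), beside 26.5% of 40889 probes. Aif1 was higher in WT kidney cells, by 1.72 ± 0.18 or 3.3-fold (limma adjusted p = 1.78e-05), beside 35.6% of probes called higher. It read 4.36, 4.92 and 4.41 in WT kidney cells, against 2.89, 2.69 and 2.93 in M2 cells, with no overlap. Mpeg1 did not pass on either probe, at -0.24 with an interval of -0.92 to 0.44 and at 0.12 with an interval of -0.54 to 0.79. On 5 of 7 probes the groups did not overlap, beside 67.5% of all probes tested. Without WT replicate 2 the first Mpeg1 probe passed at -0.64, and without WT replicate 4 it stood at 0.17. The same arrays moved Ms4a7 to -3.66 without WT replicate 2 and -2.40 without WT replicate 4, and Lyz2 to -2.87 and -1.64. Against M1 cells they moved Ms4a7 to -4.87 and -3.62 and Lyz2 to -2.97 and -1.74, and these calls held.

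Cells of op/op kidneys lay farther from M1 cells than WT cells did, by their lower level. The differences from M1 were -5.50 ± 0.36 and -6.00 ± 0.40 for Emr1, -6.45 ± 0.45 for Ms4a7, -2.61 ± 0.18 for Aif1, -4.71 ± 0.46 for Lyz2, and -2.69 ± 0.31 and -2.37 ± 0.30 for Mpeg1. In folds, Ms4a7 was 87.2-fold lower and Emr1 45.3-fold and 64.1-fold lower. All 7 passed as lower (limma), beside 35.4% of 40898 probes, and on all 7 the groups did not overlap, beside 83.1% of probes. From M2 the differences were -4.22 ± 0.36 and -4.23 ± 0.40 for Emr1, -5.23 ± 0.45 for Ms4a7, -4.61 ± 0.46 for Lyz2, and -1.45 ± 0.31 and -0.94 ± 0.30 for Mpeg1. These 6 passed as lower (limma), beside 36.7% of 38070 probes, and the last lost its call without op/op replicate 4 (-0.74, limma adjusted p = 0.0568). On 6 of 7 probes the op/op and M2 groups did not overlap, beside 85.7% of probes. Aif1 read 3.06, 2.92 and 3.13 in op/op cells, against 2.89, 2.69 and 2.93 in M2 cells. These groups overlapped, and the difference of 0.20 ± 0.18 did not pass (limma adjusted p = 0.325, interval -0.20 to 0.60).

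The order of group means was thus M1, M2, WT renal, op/op renal for Emr1 on both probes, Ms4a7, Lyz2 and Mpeg1 on A_51_P390538. Neighbours in that order that did not pass were M1 and M2 for Ms4a7 and Lyz2, and M2 and WT renal for Mpeg1. On A_52_P180373 Mpeg1 ran M1, WT renal, M2, op/op renal, and WT renal and M2 did not differ beyond their spread. Aif1 ran M1, WT renal, op/op renal, M2: it was the one gene with M2 as its lowest group, and op/op renal and M2 did not differ beyond their spread.

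The Emr1 probes gave unequal sizes in several comparisons. Their differences were 0.50 apart in M1 minus M2, 1.22 apart in WT renal minus M1 and 0.72 apart in WT renal minus M2, each with the smallest two-sided exact permutation p the design allows (0.1, adjusted 0.171). The direction was the same on both probes in each comparison. For Mpeg1 the probes disagreed in sign only for WT renal minus M2, where neither passed.

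Relatives of the 5 genes were read as well. The list held 21 symbols of the EMR, MS4A, lysozyme, Aif1 and perforin families, of which 19 were on the array. Emr4 (now Adgre4) and Cd97 (now Adgre5) were each listed under both names. In op/op against WT cells 13 were tested, 4 lower and 3 higher, with a median of -0.24. This is near the share over all probes, of which 28.5% were called lower and 27.5% higher. Ms4a6d had -2.90 ± 0.41 (limma adjusted p = 0.000775), with 2 of 3 op/op arrays above background, and Ms4a6c -1.66 ± 0.25 (limma adjusted p = 0.000919). Ms4a6b was above background by the scanner's call on none of the op/op arrays and was at least 3.71-fold lower there than in WT cells (limma adjusted p = 0.000423). For such a bound, each array of the dim group counts with its lowest signal that was well above background, or with the probe's own signal if that was higher. Ms4a1, the B cell antigen CD20, was higher at 1.76 ± 0.31 (limma adjusted p = 0.0017), as was Prf1, the perforin of cytotoxic lymphocytes, at 0.81 ± 0.17 (limma adjusted p = 0.00323). Ms4a10 was the remaining higher gene (1.0 ± 0.18, limma adjusted p = 0.002).

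The nearest relatives of Emr1 and Aif1 gave other values. Cd97, an adhesion receptor of many leukocytes, differed by -0.24 ± 0.20 between op/op and WT cells (limma adjusted p = 0.32). Aif1l, the Aif1-like gene, had -0.50 ± 0.31 (limma adjusted p = 0.174). Emr4, an adhesion receptor of myeloid cells in mice, had -1.51 ± 0.87 (limma adjusted p = 0.152) and was above background by the same call on 1 of 3 op/op arrays. Between M1 and M2, where 7 of 16 tested relatives were higher and 2 lower, beside 8.9% and 8.88% of all probes, Cd97 was lower in M1 (-1.37 ± 0.20, limma adjusted p = 0.000532) and so was Aif1l (-2.13 ± 0.31, limma adjusted p = 0.000468). Emr4 was at least 3.94-fold higher in M1 (limma adjusted p = 0.00925), with no M2 array above background. Ms4a6c (3.61 ± 0.25) and Ms4a6d (2.02 ± 0.41) were higher in M1, and Ms4a6b was at least 69.4-fold higher, since no M2 array had it well above background.

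For each gene, up to 3 genes with the most similar pattern over the 12 arrays are given, by Pearson's r on the brightest probe. The arrays share 4 groups and 3 slides, so r mostly follows the group means and is a description. For Emr1 they were Spred1 (r = 0.995), Sfpi1, which encodes PU.1 (0.995), and Nmt1 (0.994). For Ms4a7 they were Arhgdib, Ms4a6d and Npc2 (0.996 each), and for Lyz2 Tpd52 (0.996), Cd53 (0.994) and Stim1 (0.994). Aif1 was nearest to Pilra (0.99) and Bcl3 (0.986), and Mpeg1 to Ptbp3 (0.987), H2-Q7 (0.986) and Ccl8 (0.986). Pilra differed by -1.98 between op/op and WT cells, 4.60 between M1 and M2 and 2.43 between WT kidney and M2 cells, the same signs as Aif1.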

How the data were processed

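RNA of 12 samples was read on Agilent mouse arrays with 1 colour. Per the labels, RNA was extracted with RNeasy Micro, amplified with Ovation PicoSL WTA V2 and labelled with Cy3. Per the file headers and the submitters' processing notes, Agilent Feature Extraction 10.7.3.1 made the deposited spot intensity values; the processed signal was used here. The deposited value table holds log2 values relative to each array's 75th percentile, as tested against the scanner values (r = 1 on each array, column medians -2.46 to -1.87), and served as an alternative.

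Here log2 of the processed signal minus the array's 75th percentile was computed, and the spots of a probe not marked as outliers were averaged. Of 55681 probes, 30 were left out because some array had only spots marked as outliers for them. All 12 arrays entered 1 limma 3.58.1 fit (lmFit and eBayes, R 4.3.3, no covariates). A probe was tested in a comparison if all 3 arrays of either group had it well above background. P-values were adjusted over them by Benjamini and Hochberg, and a probe was called under 0.05. Every SE and adjusted p in the report is from this fit. Gene lists were read on the brightest probe of each gene. Genes named are the 5 genes, their relatives, the 2 genes with the smallest p of the other macrophage genes and the 3 with the most similar pattern for each gene. One gene that this rule names is not reported here. The sorting antigens were named as a check of the label. Vsig4, C1qb, Siglec1, Marco, Csf1r, Siglech, Csf3r, Slc13a1, Slc22a8, Cd3g, Cd4, Eomes, Gzmb and Klrk1 were named after their values were seen. Pilra was followed further for the same reason.

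The labels do not say whether the shared replicate numbers of op/op and WT (1, 2 and 4) and of M1 and M2 (2, 3 and 4) mark pairs. The arrays were fitted as unpaired. The procedure was tested on simulated data. The genes and lists were chosen with earlier results of these data known. The fit of only 2 groups, other scalings, filters, weights, slide and replicate blocks and leaving out each array were tried. Random blocks used statmod 1.5.0. Sequence searches and plots used Python 3.11.15 with pandas 2.3.3 and matplotlib 3.10.9.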

Additional observations from a re-analysis of the deposited data

How the results depend on the processing

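The number of arrays limits the precision, and well above background calls limit which probes are tested. Counting probes that kept direction and side of the threshold under each alternative run, 6 of 7 did so in op/op minus WT, 3 of 7 in M1 minus M2, 7 of 7 in WT renal minus M1, 5 of 7 in WT renal minus M2, 7 of 7 in op/op renal minus M1 and 5 of 7 in op/op renal minus M2. With only the 2 groups in the fit, 13506 probes were called in op/op minus WT (22753 with all arrays) and 14483 in M1 minus M2 (6986), and Mpeg1 on A_52_P180373 missed the threshold in op/op minus WT (limma adjusted p = 0.0525). Array weights called 15218 probes in M1 minus M2. With the brightest probe of each gene, which tests fewer probes, 4653 were called in M1 minus M2, 3 of them among the 5 genes. Leaving out single arrays gave 3 to 6 called probes of the 7 in M1 minus M2. Some small differences turned sign: Lyz2 in M1 minus M2 (-0.06 to 0.23, negative without M1 replicate 2), Mpeg1 in WT renal minus M2 on A_51_P390538 (-0.64 to 0.17 over single arrays left out, 0.05 with quantile normalization, 0.21 with array weights) and on A_52_P180373 (-0.16 to 0.50). The cause was not tested. Aif1 in op/op renal minus M2 passed with quantile normalization (0.53, limma adjusted p = 0.0138), which moved the median of all probes by -0.17 to -0.26 in the kidney against marrow comparisons. Normexp background correction moved the share of calls that were higher in op/op minus WT to 61% (49.1% without it).

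Deviations of same-numbered arrays from their group means correlated at -0.14 to 0.08 between op/op and WT and at -0.05 to 0.12 between M1 and M2. These values show little in common between same-numbered arrays, but cannot tell whether such samples were handled together. With the replicate number as a block, 7 of the 7 probes were called in op/op minus WT (21649 of all probes) and 4 in M1 minus M2 (6066 of all probes), where Emr1 on A_55_P2144386 missed the threshold (limma adjusted p = 0.0608). Slide as a term could not be fitted for kidney against marrow. Slide as a random block (correlation 0.343) changed no call of the 7 probes.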
